A study of Danio rerio with 12 samples.

Results

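The 10 genes described here are markers of macrophages or encode chains of complement C1q, and they were chosen by symbol from the 25281 genes in the table of each library. They are the transcription factor gene spi1b, the receptor genes csf1ra and csf1rb, the macrophage markers mpeg1.1, mfap4, marco and mrc1b, and the C1q chain genes c1qa, c1qb and c1qc. All 10 passed the filter on low counts in every comparison. Bulk RNA sequencing was done on ventricles of adult zebrafish, uninjured or resected at the apex and collected at 3 days post-amputation (dpa). Experiment 1 had 1 library each of WT (AB*) and of dusp6 pt30a/pt30a mutant hearts in either state. Experiments 2, 3 and 4 had 1 library each of WT (AB*) and of foxm1 mutant hearts, all at 3 dpa. The labels give the foxm1 genotypes as sa10708/sa10708, sa10708/sa10709 and sa10708/sa10710, while the methods name only the first. For hearts at 7 dpa, of WT and dusp6 mutant fish, only group means were used. Ages in the labels run from 6 months to 1 year. RNA came from pooled hearts, for which the methods give a minimum per condition but no number for a single library. The p-values therefore cover spread between such pools, not between single hearts. At 3 dpa against uninjured, a state held 1 WT and 1 dusp6 mutant library, and the fit had no genotype term. Its spread therefore includes any genotype difference. In dusp6 mutants against WT, the spread includes any change of the genotype difference between the states.

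Macrophages are phagocytes that settle in the heart and also enter it after injury, where they clear dead cells and debris. Their fate depends on the transcription factor PU.1, and their survival depends on the receptor CSF1R and its ligands. Macrophages are a main source of C1q, whose A, B and C chains assemble into the molecule that binds immune complexes and dying cells and opens the classical complement pathway with the proteases C1r and C1s. In a whole ventricle, more macrophages and more RNA of these genes per macrophage cannot be told apart.

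The libraries of experiment 1 held 54229254 to 67236702 gene reads, and those of experiments 2 to 4 held 17654534 to 21245883. In uninjured hearts the dusp6 transcript was at 93.8 counts per 1000000 reads (CPM) in WT and at 201 CPM in dusp6 mutants. At 3 dpa of experiment 1 it was at 235 CPM in WT and at 338 CPM in dusp6 mutants. The foxm1 transcript was at 10.3 to 12.2 CPM in WT against 12.5 to 14.6 in foxm1 mutant hearts. Neither transcript was lower in its mutant. Transcript levels therefore do not check the genotype labels. The heart muscle genes myl7, cmlc1, tnnt2a and ttn.2 together reached 56688 to 57534 transcripts per 1000000 (TPM) in uninjured hearts and 24336 to 40326 at 3 dpa of experiment 1. Mitochondrial transcripts took 16.0% and 16.9% of reads in the uninjured and 8.001% and 12.6% in the 3 dpa libraries. The part of the heart muscle genes in the differences below was not tested. An alternative fit left out mitochondrial and haemoglobin genes, and no direction of the 10 genes at 3 dpa reversed in it. The part of mitochondrial transcripts was not tested otherwise.

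Of the 10 genes, 9 had both 3 dpa libraries above both uninjured ones, where 28% of all 20408 genes tested did so. For these 9 the log2 fold change lay between 0.74 and 3.14, and the median over the 10 genes was 2.07 against −0.0046 over all genes tested. The exception was csf1rb. Levels are given below as CPM after TMM normalization, in the order WT uninjured, dusp6 mutant uninjured, WT at 3 dpa and dusp6 mutant at 3 dpa.

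spi1b (ENSDARG00000000767, chromosome 7 of GRCz11, 32644673 to 32659353, minus strand, 10 exons) encodes PU.1, which directs progenitors to the myeloid lineage. Its level was 6.12 and 6.35 CPM in uninjured hearts and 30.9 and 23.1 CPM at 3 dpa. The states did not overlap, and the log2 fold change was 2.11 (standard error 0.243). Of its gene reads, 88.7% mapped uniquely, and it overlaps si:ch73-314g15.3. On uniquely mapped reads its log2 fold change was 2.07.

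The zebrafish has a pair of CSF1R genes. csf1ra (ENSDARG00000102986, chromosome 14, 3143337 to 3180947, minus strand, 26 exons), which is also needed by xanthophores, the yellow pigment cells, was at 8.93 and 9.83 CPM in uninjured hearts and at 19.7 and 11.6 CPM at 3 dpa. The WT library at 3 dpa stood above the other 3, and the log2 fold change was 0.74 (standard error 0.319), falling to 0.30 without that library and reaching 1.09 without the dusp6 mutant library at 3 dpa. csf1rb (ENSDARG00000053624, chromosome 21, 43854594 to 43877428, plus strand, 22 exons) was at 2.69 and 2.62 CPM in uninjured hearts and at 1.61 and 2.62 CPM at 3 dpa. The states overlapped, and the log2 fold change was −0.33 (standard error 0.397), turning to 0.049 and 0.090 on log2(TPM + 1) and log2(TPM + 0.1). csf1rb had 62 to 194 reads in a library, the fewest of the 10 genes, and 30.5% of its reads lay in introns. The 4 xanthophore genes, with aox5, gch2 and slc2a15b among them, summed to 0.679 to 3.87 TPM over the 10 libraries.

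Among the ligands of CSF1R, csf1a was at 0.992 and 2.08 CPM in uninjured hearts and at 20.5 and 15.7 CPM at 3 dpa. It was higher in both 3 dpa libraries, with a log2 fold change of 3.55 (standard error 0.448). il34, the other ligand that passed the filter, was at 7.09 and 7.08 CPM and then at 10.4 and 8.98 CPM, a log2 fold change of 0.45. The third, csf1b, was too low to test in experiment 1.

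mpeg1.1 (ENSDARG00000055290, chromosome 8, 29710110 to 29713621, minus strand, 5 exons) encodes perforin-2, a pore-forming protein of phagocytes. It was at 11.4 and 8.31 CPM in uninjured hearts and at 30.1 and 17.5 CPM at 3 dpa. Both 3 dpa libraries were higher, WT more than dusp6 mutant, and the log2 fold change was 1.27 (standard error 0.348).

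marco (ENSDARG00000059294, chromosome 9, 795609 to 813693, minus strand, 21 exons) encodes a scavenger receptor that takes up bacteria and debris. It was at 16.4 and 27.2 CPM in uninjured hearts and at 83.3 and 119 CPM at 3 dpa. The states were well apart, with the dusp6 mutant library the higher one in each, and the log2 fold change was 2.21 (standard error 0.350).

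mfap4 (ENSDARG00000090783, chromosome 1, 59090583 to 59092056, plus strand, 8 exons) encodes a fibrinogen-related protein and marks macrophages in zebrafish. It was at 2.27 and 3.26 CPM in uninjured hearts and at 30.4 and 11.8 CPM at 3 dpa. The WT library at 3 dpa was far above the other 3. The log2 fold change was 2.93 (standard error 0.539), falling to 2.09 without that library and reaching 3.48 without the dusp6 mutant library at 3 dpa. mfap4 is 1 of 12 copies on chromosome 1 between 58885602 and 59141838, and only 20.2% to 30.4% of its reads in a library mapped uniquely, against 94.7% to 96.0% over all genes. mfap4 also overlaps another copy, MFAP4 (1 of many)_4. How the reads of mfap4 divide among the copies is therefore uncertain. The sum over all 12 copies was 6.75 and 8.45 CPM in uninjured hearts and 44.3 and 19.97 CPM at 3 dpa, 4.23-fold higher on the mean. That is less than the 7.64-fold of mfap4 alone, and the order of the libraries was the same.

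mrc1b (ENSDARG00000038822, chromosome 2, 31515853 to 31540922, minus strand, 35 exons) encodes a mannose receptor. It was at 8.83 and 8.92 CPM in uninjured hearts and at 89.9 and 67.0 CPM at 3 dpa. Its log2 fold change of 3.14 (standard error 0.240) was the largest of the 10 genes on all reads. On uniquely mapped reads that of mfap4 was above it, at 3.05, but from 0.571 and 0.690 CPM in uninjured hearts. The 95% intervals overlapped there, at 1.44 to 4.67 in mfap4 and 1.17 to 3.27 in mrc1b. Much of the difference of mrc1b between the states lay in reads that did not map uniquely. Uniquely mapped reads were 49.3% and 43.3% of its reads in uninjured hearts but 28.6% and 18.5% at 3 dpa. Its uniquely mapped reads alone were at 4.35 and 3.86 CPM in uninjured hearts and at 25.7 and 12.4 CPM at 3 dpa. The states still did not overlap, and a fit on uniquely mapped reads gave a log2 fold change of 2.22 (standard error 0.409). The remaining reads of mrc1b were at 4.48 and 5.06 CPM and then at 64.2 and 54.7 CPM. These reads, which have other possible places, thus rose more than its uniquely mapped reads. mrc1b overlaps cacnb2b, and where its reads that did not map uniquely belong was not tested.

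The 3 C1q genes lie side by side on chromosome 21 within 12674 bases, from 22712307 to 22724980, in the order c1qb, c1qc, c1qa, all on the minus strand and with no other gene between them. c1qa (ENSDARG00000044613) was at 8.27 and 7.12 CPM in uninjured hearts and at 23.3 and 23.8 CPM at 3 dpa. c1qb (ENSDARG00000044612) was at 8.50 and 9.99 CPM and then at 40.5 and 42.4 CPM. c1qc (ENSDARG00000095627) was at 10.2 and 9.38 CPM and then at 39.8 and 39.9 CPM. For each chain the genotypes were close within a state and the states were far apart. The log2 fold changes were 1.61 for c1qa (standard error 0.209), 2.17 for c1qb (standard error 0.203) and 2.02 for c1qc (standard error 0.191). At least 99.8% of the reads of each chain mapped uniquely in every library.

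c1s, which encodes a protease of the C1 complex, was at 11.4 and 10.3 CPM in uninjured hearts and at 8.27 and 12.6 CPM at 3 dpa, with overlapping states and a log2 fold change of −0.05. c4, which encodes the next component of the pathway, was at 59.5 and 69.8 CPM and then at 76.6 and 121 CPM, a log2 fold change of 0.61 (adjusted p = 0.308 in edgeR's quasi-likelihood test). c1r, the gene of the other C1 protease, was under 1 CPM in all 4 libraries.

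**Figure D1:**
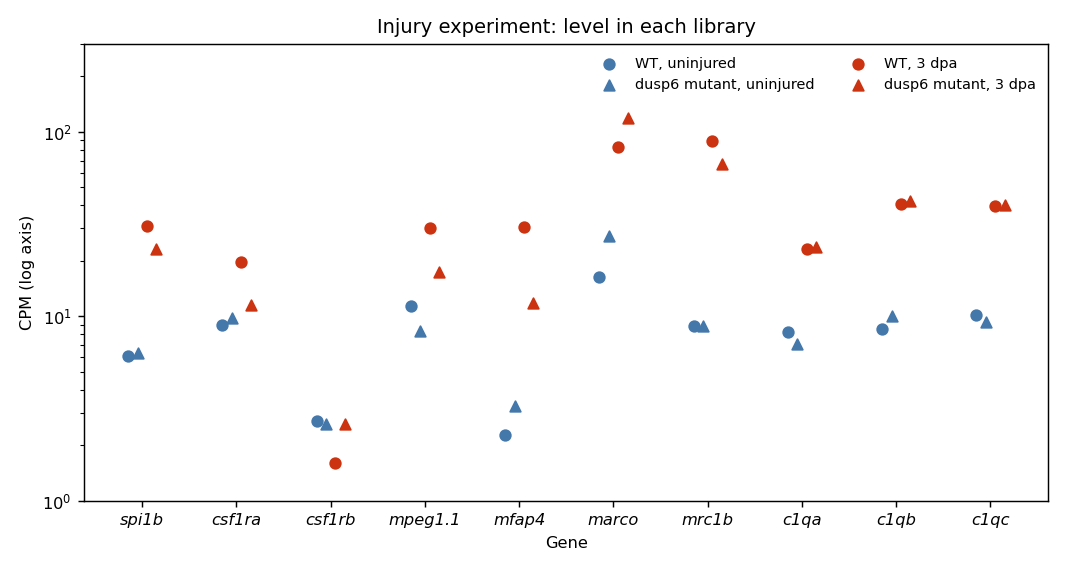
Level of each gene in the 4 libraries of experiment 1, in CPM on a log axis; circles are WT, triangles dusp6 mutant, blue uninjured and red 3 dpa. For 9 genes both red points lie above both blue points, and for csf1rb they overlap.

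edgeR's quasi-likelihood F test, with 2 libraries a state, called 0 of the 10 genes at the thresholds of the study, 0.01 for the adjusted p and 0.59 for the size of the log2 fold change, and it called 0% of all genes in either direction. The adjusted p of the 10 genes ran from 0.0674, the lowest over all genes, in spi1b, mrc1b, c1qa, c1qb and c1qc to 0.689 in csf1rb. At an unadjusted p under 0.05, 8 of the 10 genes were higher, against 13.6% of all genes tested. DESeq2's Wald test called 7 of the 10 higher, where it called 6.4% of genes, namely spi1b, mfap4, marco, mrc1b, c1qa, c1qb and c1qc. Its adjusted p was 1.33e-06 in c1qa, 4.18e-12 in c1qb, 1.37e-11 in c1qc and 9.11e-09 in spi1b. Over all alternatives the adjusted p ran up to 0.389 in c1qa, 0.364 in c1qb, 0.363 in c1qc and 0.364 in spi1b. edgeR's likelihood ratio test called 7 higher (5.5% of genes), and the quasi-likelihood test with all 10 libraries in one fit called 8, with mpeg1.1 as the eighth (8.8% of genes). In that last fit the spread between libraries comes from the foxm1 experiment, which has no uninjured hearts.

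**Figure D2:**
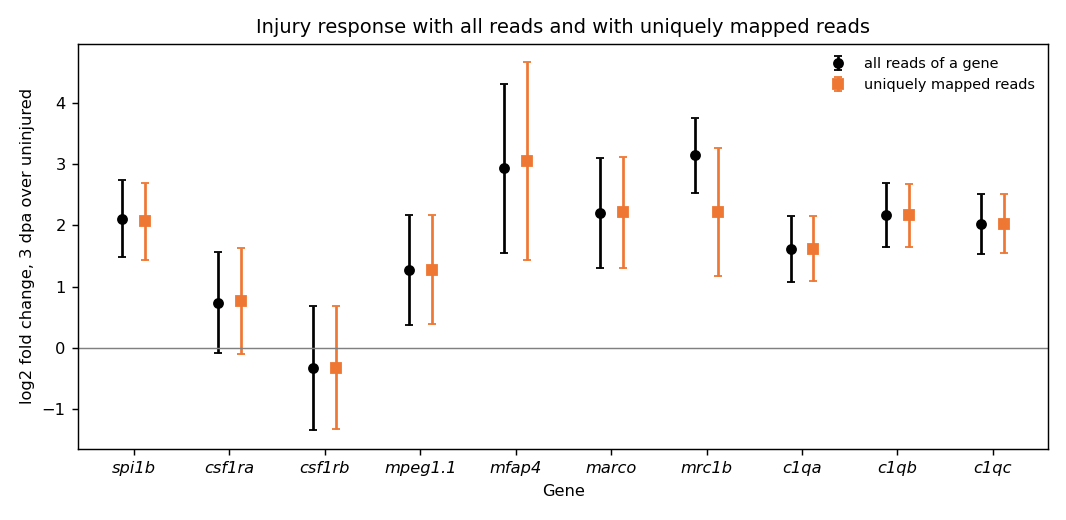
log2 fold change of 3 dpa over uninjured hearts for each gene with its 95% interval, from all reads of a gene (circles) and from uniquely mapped reads (squares). The 2 estimates lie close together except in mrc1b, at 3.14 with all reads and 2.22 with uniquely mapped reads.

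Other myeloid and leukocyte genes were higher in the same 3 dpa libraries. All 7 other transcription factor genes of myeloid cells had both 3 dpa libraries above both uninjured ones, with a median log2 fold change of 1.64. mafba was at 25.3 and 24.3 CPM and then at 62.9 and 46.9 CPM, and cebpb was at 5.92 and 8.28 CPM and then at 65.5 and 28.5 CPM. Of 21 other macrophage genes that passed the filter, 15 were higher in both 3 dpa libraries and 1 was lower, with a median of 1.60. grn1, a granulin gene, was at 9.46 and 22.6 CPM and then at 308 and 201 CPM. cd74a, the invariant chain of MHC class II, went the other way, at 161 and 202 CPM in uninjured and 62.5 and 133 CPM at 3 dpa hearts (log2 fold change −0.90, adjusted p = 0.292 in the quasi-likelihood test). All 11 genes of most leukocytes were higher in both, with a median of 1.72, and lcp1 had a log2 fold change of 1.38. The quasi-likelihood test called 0 genes of each of these lists, and DESeq2 called 5, 10 and 8 of them higher.

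The lists for other cell types give the surroundings of these values. Of 8 neutrophil genes, 6 were higher in both 3 dpa libraries (median 2.88), and the list summed to 7.85 and 12.6 TPM in uninjured hearts and to 34.05 and 117 TPM at 3 dpa. All 8 fibroblast genes (median 3.62) and all 4 erythrocyte genes (median 2.17) were higher in both, and all 4 cardiomyocyte genes were lower in both (median −1.05). The medians were −0.26 over 7 lymphocyte genes, 0.27 over 4 dendritic cell genes and 0.63 over 3 xanthophore genes. They were −0.28 over 6 endothelial genes, −0.19 over 4 thrombocyte genes and 0.73 over 13 complement genes downstream of or beside the classical pathway. Some of these genes are not limited to their list, spi1b among them, which neutrophils also use. The part of other cell types in the values of the 10 genes was not tested.

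At 7 dpa most of the 10 genes were nearer to the uninjured level. The values are the authors' group means in reads per kilobase and 1000000 reads (RPKM), taken from the larger of the group means of their 7 dpa table, which holds the 7 dpa mean wherever that exceeds the uninjured mean. No spread comes with them, and they share the uninjured libraries with the 3 dpa comparison. The labels give the 7 dpa hearts no experiment number, while the uninjured and 3 dpa libraries used here are of experiment 1. A difference between times and one between experiments can therefore not be told apart. The 7 dpa mean was above the uninjured mean in 9 of the 10 genes, against 52.9% of 14723 genes with an uninjured mean of at least 0.3 RPKM, and at least 1.5-fold above it in 6, against 13.4%. csf1ra was not above its uninjured mean of 1.68 RPKM at 7 dpa, after 3.74 RPKM at 3 dpa.

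At 7 dpa the fold over the uninjured mean was larger in the C1q chains, mrc1b, marco and mfap4 than in spi1b and mpeg1.1. c1qb was at 7.24 RPKM in uninjured hearts, at 42.9 at 3 dpa and at 17.2 at 7 dpa, which is 2.37-fold the uninjured mean. c1qc was at 8.24, 41.8 and 17.6 RPKM (2.14-fold at 7 dpa) and c1qa at 5.11, 20.01 and 8.45 RPKM (1.66-fold). mrc1b was at 1.09, 12.2 and 2.58 RPKM, 2.37-fold at 7 dpa, and its share of uniquely mapped reads at 7 dpa was not analysed here. The scavenger receptor marco was at 6.92, 42.5 and 11.9 RPKM and mfap4 at 1.76, 18.1 and 3.02 RPKM, each 1.72-fold at 7 dpa. spi1b was at 1.94, 10.7 and 2.82 RPKM, and mpeg1.1 at 2.92, 9.02 and 3.36 RPKM. In these last genes the 7 dpa mean was under 1.5-fold of the uninjured mean. csf1rb stayed between 0.456 and 0.531 RPKM at all 3 times. The ligand gene csf1a was 3.43-fold above its uninjured mean at 7 dpa, and il34 was at 3.02 RPKM in uninjured hearts and 3.14 at 7 dpa. The median gene with at least 0.3 RPKM was 1.18-fold higher at 3 dpa on the RPKM scale, which has no TMM factor.

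**Figure D3:**
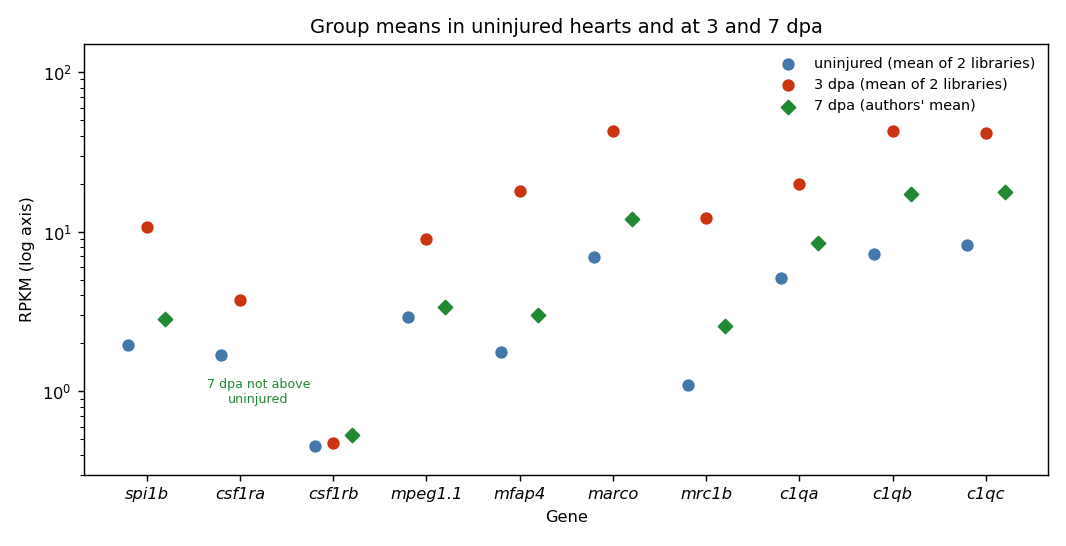
Group means in RPKM on a log axis for uninjured hearts and 3 dpa, each the mean of 2 libraries, and for 7 dpa, the authors' mean. All genes but csf1ra and csf1rb have a 7 dpa value between the uninjured and the 3 dpa value; csf1ra has none, since its 7 dpa mean was not above the uninjured mean.

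In dusp6 mutant hearts none of the 10 genes passed the threshold against WT, with injury state as a second term (quasi-likelihood test, adjusted p of at most 0.05; 0% of genes called in either direction). DESeq2 also called 0 of the 10, where it called 0.75% of genes higher. At an unadjusted p under 0.05, 1 gene was higher (3.92% of genes) and 1 lower (3.97%). marco was the higher one, at 27.2 CPM in dusp6 mutant against 16.4 in WT uninjured hearts and at 119 against 83.3 at 3 dpa. Its log2 difference was 0.62 (standard error 0.215, adjusted p = 0.617). mpeg1.1 was the lower one, at 8.31 against 11.4 CPM in uninjured hearts and at 17.5 against 30.1 at 3 dpa. Its log2 difference was −0.62 (standard error 0.222, adjusted p = 0.620). Of the 10 genes, 2 were higher in dusp6 mutants in both states, marco and c1qb, and 1 was lower in both, against 28.7% and 29.4% of all genes. With 1 library per genotype and state, a difference between genotypes and one between pools of hearts cannot be told apart.

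The size of the injury response in the single WT and the single dusp6 mutant pair of libraries was compared in one fit over all 10 libraries, an interaction test chosen after the data were seen. Each genotype and state has 1 library, so the standard errors, p-values and intervals of this test take their spread from the foxm1 experiment, and genotype and pool of hearts cannot be told apart. The difference passed the threshold of an adjusted p of at most 0.05 in 0 of the 10 genes, where it did so in 0.12% of genes with a larger and 0.135% with a smaller response in dusp6 mutants. mfap4 was 13.4-fold higher at 3 dpa in WT and 3.61-fold higher in dusp6 mutant hearts. This was a log2 difference of −1.89 (standard error 0.421, unadjusted p = 0.00186, adjusted p = 0.122 in edgeR). On uniquely mapped reads the difference was −1.80 (adjusted p = 0.209), and the sum over the 12 mfap4 copies was 6.56-fold higher in WT and 2.36-fold higher in dusp6 mutant hearts. csf1ra was 2.20-fold higher in WT and 1.18-fold higher in dusp6 mutant hearts (log2 difference −0.90, 95% interval −1.93 to 0.12). Among the C1q chains, c1qa was 2.81-fold and 3.34-fold higher in WT and dusp6 mutant hearts, c1qb 4.75-fold and 4.24-fold, and c1qc 3.88-fold and 4.25-fold. The interval of their log2 difference was −0.62 to 1.12 in c1qa, −1.04 to 0.71 in c1qb and −0.65 to 0.92 in c1qc. The summed genes of most leukocytes were at 380 TPM at 3 dpa in WT against 206 TPM in dusp6 mutants, and the cardiomyocyte genes at 24336 against 40326 TPM. The fibroblast genes were at 3664 against 1120 TPM and the neutrophil genes at 34.05 against 117 TPM. In CPM the tested neutrophil genes summed to 45.3 in WT against 68.0 in dusp6 mutants, and single genes differed in direction. At 3 dpa npsn was at 7.42 CPM in WT against 18.9 in dusp6 mutants, and mmp9 at 17.5 against 4.61. The part of these lists in the differences of the 10 genes was not tested.

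**Figure D4:**
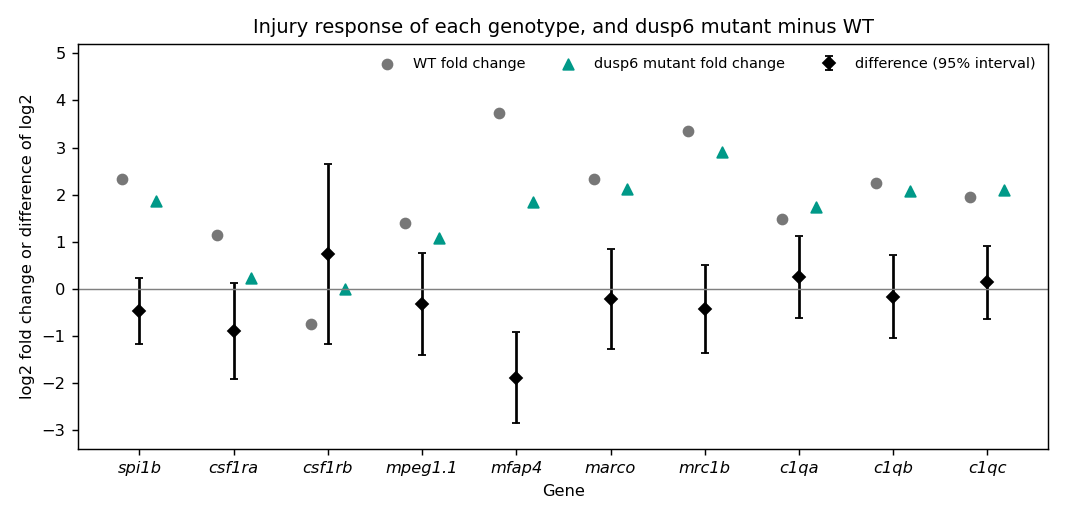
log2 fold change of 3 dpa over uninjured hearts in the WT pair (circles) and the dusp6 mutant pair of libraries (triangles), and dusp6 mutant minus WT with its 95% interval (diamonds). The difference is −1.89 in mfap4 (adjusted p = 0.122 in edgeR) and −0.90 in csf1ra, and the intervals take their spread from the foxm1 experiment, since each pair is 1 library a state.

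Between foxm1 mutant and WT hearts at 3 dpa, 0 of the 10 genes passed the threshold (quasi-likelihood test, adjusted p of at most 0.05; 0% of 17618 genes called higher and 0.0114% lower). DESeq2 and the likelihood ratio test also called 0, where they called 0.375% and 0.403% of genes higher. The log2 difference was positive in 7 of the 10 genes (49.9% of all genes), with a median of 0.35 against −0.00066 over all genes tested. The mutant libraries all lay above the WT libraries in 3 of them, spi1b, c1qb and mrc1b, against 4.85% of all genes. At an unadjusted p under 0.05, 4 of the 10 were higher, against 2.75% of genes. Set against the WT library of the same experiment, a comparison chosen after the data were seen, the mutant library was higher in all 3 experiments in 5 of the 10 genes, spi1b, c1qa, c1qb, marco and mrc1b, against 12.3% of all genes. It was lower in all 3 in 1, mpeg1.1, against 13% of all genes. These counts use all reads. On uniquely mapped reads the genotypes overlapped in mrc1b. In experiment 3 they were near equal there, at 83.5 CPM in WT and 83.0 CPM in the mutant library. In the sentences below the values stand in the order of experiments 2, 3 and 4.

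spi1b was at 36.2, 36.9 and 31.7 CPM in WT and at 41.9, 49.6 and 42.7 CPM in foxm1 mutant hearts. The groups did not overlap, and the log2 difference was 0.36 (standard error 0.123, unadjusted p = 0.0200, adjusted p = 0.764 in edgeR). csf1ra was at 25.4, 41.8 and 35.3 CPM in WT and at 28.1, 31.9 and 30.6 CPM in mutant hearts, and csf1rb at 3.59, 4.32 and 6.25 CPM and at 6.14, 10.6 and 4.46 CPM. Both receptor genes overlapped between genotypes, with log2 differences of −0.18 (95% interval −0.60 to 0.24) and 0.57 (−0.22 to 1.37). Their ligand genes had log2 differences of −0.50 in csf1a, −1.71 in csf1b and 0.15 in il34, and in each the groups overlapped. csf1b was low, at 1.51, 2.22 and 0.109 CPM in WT and at 0.110, 0.927 and 0.139 CPM in mutant hearts. The 95% interval of its difference was wide, −4.01 to 0.60.

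Among the C1q chains, c1qb was at 60.3, 61.6 and 63.1 CPM in WT and at 64.4, 93.9 and 91.4 CPM in mutant hearts. c1qa was at 42.6, 45.0 and 37.3 CPM in WT and at 44.1, 62.4 and 57.1 CPM in mutant hearts. c1qc was at 66.6, 71.3 and 65.2 CPM in WT and at 65.5, 85.9 and 88.7 CPM in mutant hearts. In all 3 chains the mutant library of experiment 2 was near the WT level and the other mutant libraries were higher. The log2 differences were 0.43 in c1qb (standard error 0.156, adjusted p = 0.773), 0.39 in c1qa (adjusted p = 0.829) and 0.24 in c1qc (adjusted p = 0.988), all from edgeR's quasi-likelihood test. c4 was at 196, 200 and 197 CPM in WT and at 273, 453 and 150 CPM in mutant hearts, an overlap with a log2 difference of 0.56, and c1s had one of 0.25.

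mrc1b was at 109, 141 and 93.4 CPM in WT and at 170, 153 and 144 CPM in mutant hearts, without overlap. Its log2 difference was 0.44 (standard error 0.165, adjusted p = 0.780). On uniquely mapped reads the groups overlapped, at 61.1, 83.5 and 51.9 CPM in WT and at 99.4, 83.0 and 58.5 CPM in mutant hearts, and the log2 difference was 0.31. The share of its reads that mapped uniquely was 55.6% to 59.1% in WT and 58.5%, 54.1% and 40.7% in mutant hearts.

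marco was at 222, 257 and 178 CPM in WT and at 253, 349 and 236 CPM in mutant hearts, an overlap with a log2 difference of 0.35 (95% interval −0.09 to 0.79), between 0.16 and 0.48 when single libraries were dropped. mpeg1.1 was at 72.4, 79.9 and 56.9 CPM in WT and at 64.7, 72.7 and 46.7 CPM in mutant hearts. mfap4 was at 83.0, 123 and 87.6 CPM in WT and at 86.9, 98.5 and 96.1 CPM in mutant hearts. Both overlapped, with log2 differences of −0.18 (−0.63 to 0.26) and −0.06 (−0.44 to 0.32). Over the 12 copies of the mfap4 family the sum was 205, 347 and 221 CPM in WT and 242, 298 and 251 CPM in mutant hearts, also with overlap.

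**Figure D5:**
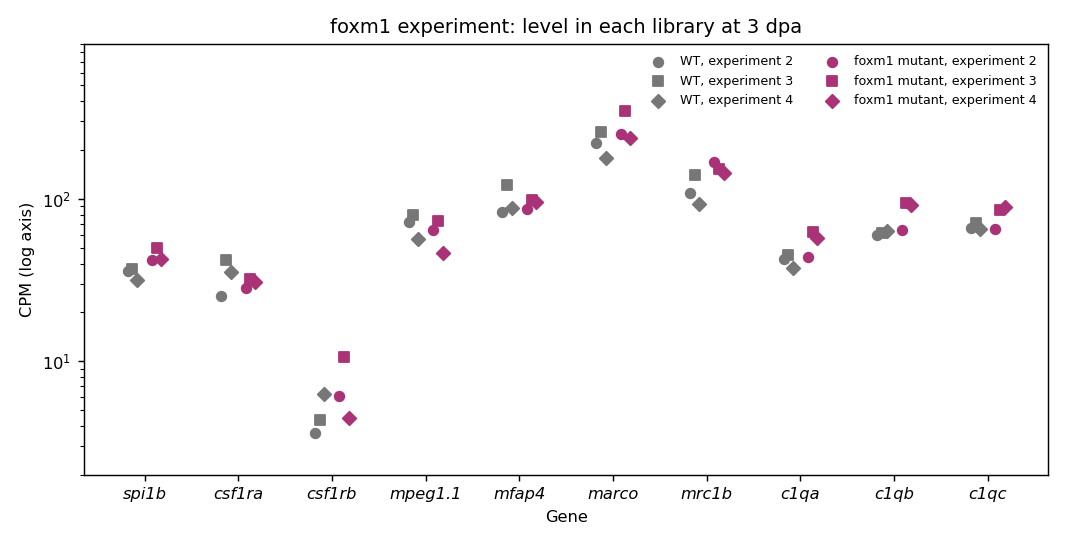
Level of each gene in the 6 libraries of experiments 2 to 4, in CPM on a log axis; grey is WT, purple foxm1 mutant and the shape gives the experiment. The purple points lie above all grey points in spi1b, c1qb and mrc1b and overlap them in the other 7 genes. The points count all reads, and on uniquely mapped reads mrc1b overlapped too.

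Beside these differences, the neutrophil genes summed to 69.0 to 113 TPM in WT and to 119 to 308 TPM in foxm1 mutant hearts. In CPM the sums over the 8 tested genes overlapped, at 69.2 to 121 in WT and 105 to 188 in mutant hearts. Of these 8 genes 5 had a positive difference and 3 a negative one, with a median of 0.21. In 3 of the 8 all mutant libraries were higher (4.85% of all genes), while mmp9 had a log2 difference of −0.50. The genes of most leukocytes summed to 364 to 500 TPM in WT and 392 to 472 TPM in mutant hearts, the fibroblast genes to 1629 to 1776 and 1346 to 1772 TPM, and the lymphocyte genes to 5.06 to 7.05 and 5.59 to 15.1 TPM. Of 7 other myeloid transcription factor genes 4 had a positive difference, with a median of 0.13, and of 21 other macrophage genes 14 were positive, with a median of 0.14. Of 9 complement genes downstream of or beside the classical pathway 7 were positive, with a median of 0.40. The quasi-likelihood test called 0 genes of each list. DESeq2 called 1 other macrophage gene higher (lgals3bpb, log2 difference 1.103), 2 of these complement genes (c3a.4 with 1.55 and cfh with 0.92) and 1 neutrophil gene (npsn with 1.16). It called 1 xanthophore gene lower, gch2 with −1.82, where it called 0.29% of all genes lower. These 5 genes were chosen after their values were seen. Mitochondrial transcripts took 11.4% of reads in the mutant library of experiment 2 and 8.19% to 8.90% in the other 5. The part of these in the values of the 10 genes was not tested, except that a fit without mitochondrial and haemoglobin genes also called 0 of the 10.

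Per length of transcript, as TPM, C1q chains and marco led the 10 genes in every group, joined by mfap4 in experiments 2 to 4. These levels count all reads, of which only 20.2% to 30.4% mapped uniquely in mfap4 and 18.5% to 59.1% in mrc1b. The places of both genes in the order are therefore uncertain. In uninjured hearts c1qc was highest (16.0 TPM), then c1qb (14.0), marco (13.4) and c1qa (9.91), and the ranges of neighbours in this part of the order overlapped. At the lower end were mpeg1.1 (5.68), spi1b (3.77), mfap4 (3.41), csf1ra (3.26), mrc1b (2.12) and csf1rb (0.886). spi1b overlapped with mfap4 and mfap4 with csf1ra. At 3 dpa of experiment 1, c1qb (86.5 TPM), marco (85.7) and c1qc (84.4) were together at the top, followed by c1qa (40.4) and mfap4 (36.5), and csf1rb stayed last at 0.952. In WT hearts of experiments 2 to 4 the order was marco (169 TPM), mfap4 (142), c1qc (126), c1qb (110), c1qa (63.0), mpeg1.1 (45.8), mrc1b (31.3), spi1b (24.6), csf1ra (14.6) and csf1rb (2.16). Of these neighbours only marco with mfap4 and mfap4 with c1qc overlapped over the 3 libraries. In foxm1 mutant hearts marco led (217 TPM), above c1qc (151), c1qb (150) and mfap4 (137), the last 3 overlapping in that order.

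The proportions among the C1q chains varied little next to their level. Summed C1q was 39.9 and 40.0 TPM in uninjured hearts, 228 and 195 TPM at 3 dpa of experiment 1 and 293 to 429 TPM in experiments 2 to 4. Of this sum c1qa made up 19.1% to 26.6%, c1qb 30.9% to 41.4% and c1qc 37.6% to 42.5% over the 10 libraries. The share of c1qa was 26.6% and 23.0% in uninjured hearts and 19.1% in both 3 dpa libraries of experiment 1. Set against the other 7 genes, the C1q sum was 1.34 and 1.13 times theirs in uninjured hearts, 1.00 and 1.196 times at 3 dpa of experiment 1 and 0.604 to 0.960 times in experiments 2 to 4.

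WT hearts at 3 dpa were sequenced in all 4 experiments, and the 10 genes did not have the same level in them. In 7 of the 10 genes the lowest WT library of experiments 2 to 4 was above the WT library of experiment 1 in TPM, against 29.2% of 14847 genes with a mean of at least 1 TPM. The mean of the later libraries was 2.56-fold that of experiment 1 in mfap4, 2.51-fold in csf1rb, 2.13-fold in marco and 1.86-fold in mpeg1.1. It was 1.19-fold in c1qb, 1.03-fold in mrc1b and 0.92-fold in spi1b. These folds count all reads. In mrc1b 28.6% of reads mapped uniquely in the WT library of experiment 1, against 55.6% to 59.1% in the later WT libraries. In mfap4 the shares were 24.4% and 29.4% to 30.4%. The folds on uniquely mapped reads were not computed. Experiment 1 gave 1 WT library at 3 dpa, with more reads. The methods name both the University of Pittsburgh and Tufts University as places of sequencing, but not which libraries each handled. The experiment, the site and the pool of hearts thus cannot be told apart. Levels in foxm1 mutants were therefore compared only with WT of experiments 2 to 4.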

How the data were processed

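The 10 genes and all gene lists were chosen with earlier results of these data known. The authors mapped reads to GRCz11 with CLC Genomics Workbench, and their deposited tables give read counts per gene (all, uniquely mapped, exon and intron reads), RPKM and TPM for each library. Their comparison tables hold fold changes and p-values, which were not used, and a larger group mean in RPKM, which was used for 7 dpa only. In the 3 dpa and foxm1 tables this column equals the larger mean of the libraries in all 25281 genes, within 1e-06.

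All gene counts were filtered with filterByExpr (minimum count 10, total 15), normalized by TMM and tested with edgeR 4.0.16 (quasi-likelihood F test, R 4.3.3), with Benjamini-Hochberg adjustment over all genes tested. 3 dpa against uninjured pooled WT and dusp6 mutant libraries, as in the study. The foxm1 comparison used the 6 libraries of experiments 2 to 4. dusp6 mutants were compared across states, each state serving as a replicate. Alternatives were DESeq2 1.42.0, the likelihood ratio test, other scalings, filters and read classes, and a fit without haemoglobin and mitochondrial genes. Further ones were limma 3.58.1 on log2(TPM + 1) and log2(TPM + 0.1), a block, and leaving libraries out. Scripts were tested on simulated data. All 10 genes are named, with the CSF1R ligands, C1 proteases and c4 that passed the filter, at most 3 genes with the highest CPM of each other list, and the 6 genes most like the 10. Some genes outside this rule are named too. Among them are ttn.2 of the cardiomyocyte list, and lgals3bpb, c3a.4 and cfh, which DESeq2 called in foxm1 mutants.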

Additional observations from a re-analysis of the deposited data

How the results depend on the processing

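At 3 dpa against uninjured hearts the number of the 10 genes called was 0 under the quasi-likelihood test, 7 with DESeq2, 7 with the likelihood ratio test and 8 with all 10 libraries in one fit. With 1 library left out in turn it ran from 0 to 1, the 1 being mrc1b without the dusp6 mutant library at 3 dpa (adjusted p = 0.00865, and from 6.00e-21 to 0.337 over all its alternatives). Calls over all genes moved with the same settings, from 0 to 1524 with DESeq2, 1276 with the likelihood ratio test, 2713 with all 10 libraries and 173 without the dusp6 mutant library at 3 dpa. For foxm1 mutants and for dusp6 mutants against WT, 0 of the 10 genes were called under every alternative run. Replicates of the foxm1 experiment carry the numbers 2, 3 and 4 of their experiments. Over all genes, the 2 calls in foxm1 mutants became 117 with DESeq2, 123 with the likelihood ratio test, 142 without WT replicate 4, 26 without foxm1 mutant replicate 4, 203 without experiment 4, 1 on log2(TPM + 0.1) and 0 with exon reads, on log2(TPM + 1), at an adjusted p of at most 0.01, without WT replicates 2 and 3 and with any other single library left out. The 0 calls in dusp6 mutants became 293 with DESeq2, 380 with the likelihood ratio test, 659 with all 10 libraries, 2 with no filter and 1 with library size alone.

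The labels give the foxm1 mutant and WT libraries the same experiment numbers but do not say what the libraries of an experiment share. The correlations of same-numbered deviations were 0.0862, −0.0362 and 0.126, and not every library correlated best with its own number. With the replicate block 0 of the 10 genes and 1 gene in all were called, and the log2 difference was 0.41 in c1qb, 0.35 in marco (unadjusted p = 0.0256, adjusted p = 0.702 in edgeR, and from 0.576 to 1.00 over all its alternatives) and −0.19 in mpeg1.1 (adjusted p = 0.927, and from 0.718 to 1.00 over all its alternatives).

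Of the values of single genes under the alternatives, 527 kept their direction and side of the threshold, 23 passed it only in the alternative and 20 reversed. Some alternatives gave no p-value, namely the dusp6 fits with 1 library left out and the injury response in the libraries of a single genotype. Their values could not pass the threshold, so those among the 527 show the direction only. csf1rb at 3 dpa turned to 0.049 on log2(TPM + 1), 0.090 on log2(TPM + 0.1) and 0.00083 in the dusp6 mutant libraries alone, an alternative chosen after seeing the data. In foxm1 mutants mfap4 ran from −0.17 to 0.13 with 1 library left out and was 0.090 without WT replicates 2 and 3, where mpeg1.1 was 0.099. In dusp6 mutants, where leaving out 1 library leaves no test, the values ran from −0.21 to 0.039 in c1qa, −0.12 to 0.012 in c1qc, −0.76 to 0.15 in csf1ra, −0.032 to 0.71 in csf1rb, −0.42 to 0.026 in mrc1b, −1.36 to 0.54 in mfap4 and −0.41 to 0.066 in spi1b. Library size alone moved the median of all genes to 0.35 at 3 dpa, and log2(TPM + 0.1) to 0.29; relative to it 9 of the 10 genes stayed higher. csf1rb had the fewest reads of the 10 genes, and the part of depth in its values was not tested. Intervals cover the spread between libraries only. The cause of these changes was not tested.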

Other observations

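The 6 genes whose level was most like the mean of the 10 genes over the 10 libraries, among 10279 genes with a mean of at least 5 CPM, were tnfsf13b (Pearson r = 0.996), tlr22 (0.989), skap2 (0.988), dnase2 (0.986), arrdc1b (0.986) and syk (0.985). The libraries share injury state and experiment, so this is a description with no test. tnfsf13b, which encodes the cytokine BAFF, was at 3.88 and 3.79 CPM in the uninjured WT and dusp6 mutant library, at 5.84 and 5.52 CPM at 3 dpa of experiment 1 and at 6.79 to 7.80 CPM in experiments 2 to 4. dnase2, a nuclease of the lysosome, was at 8.51 and 10.8 CPM, then at 33.9 and 39.5 CPM, and at 57.1 to 70.8 CPM in experiments 2 to 4. Within the 10 genes, csf1rb followed the mean least (r = 0.641) and the other 9 had r from 0.931 to 0.989. Each of the 10 is itself part of that mean, which raises its r, so these values do not compare with those of the 6 genes.

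Of the other mfap4 copies, the one with the highest level in experiments 2 to 4, MFAP4 (1 of many)_3, was at 5.5 TPM in the WT and 2.0 TPM in the dusp6 mutant library at 3 dpa of experiment 1, and at 56.4 to 102 TPM in the 6 libraries of experiments 2 to 4. It was chosen after its values were seen, and its reads are shared with the other copies.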
